A study of Mus musculus with 2 samples.

Results

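The genes described here handle calcium or set the electrical rhythm of excitable cells: voltage-gated calcium channels and their auxiliary subunits, ryanodine and IP3 receptors, calcium pumps, store-operated and TRP channels, HCN channels and the chloride channel Ano1. They were picked by a rule on gene names, and the set was proposed with earlier results of these data known. The rule took every gene on the array whose symbol begins with Cacn, Ryr, Itpr, Atp2a, Atp2b, Trpc, Trpv, Hcn, Orai or Stim, every Trpm gene with a number, and Ano1. This gave 74 genes on 105 probes, out of 39429 probes on the array. A gene counted as expressed when at least 1 of its probes was well above background on both arrays in 1 of the genotypes. By that measure 55 of the 74 genes were expressed and 19 were not. Of all 31819 genes read without this filter, 20506 passed it and were tested.

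RNA came from dissected ureters of NMRI mouse embryos at stage E14.5. The embryos called Gata2cKO were Tbx18(cre/+);Gata2(fl/fl): both copies of Gata2, a zinc finger transcription factor, are flanked by loxP sites, and Cre is made from 1 copy of Tbx18, a gene of the mesenchyme around the ureter. The controls were Tbx18(+/+);Gata2(fl/?), so they shared at least 1 floxed Gata2 copy, their other Gata2 copy is not given, and they carried neither Cre nor the altered Tbx18 copy. Effects of the Cre allele and of the loss of Gata2 therefore cannot be told apart. Each of the 2 arrays held 1 control RNA and 1 Gata2cKO RNA, both female on array 1 and both male on array 2, with the dyes exchanged between the arrays. Sex and dye orientation thus changed together. How many embryos went into an RNA was not given in the labels, so the spread between the arrays may be in part technical.

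In smooth muscle a contraction begins when calcium enters the cytoplasm, through voltage-gated channels in the cell membrane or through ryanodine and IP3 receptors in the store, the sarcoplasmic reticulum. Pumps then return calcium to the store (SERCA) or out of the cell (plasma membrane pumps), and STIM and ORAI proteins let calcium in when the store is empty. The ureter moves urine by waves of contraction that start near the kidney in pacemaker cells, where HCN channels, T-type calcium channels and the calcium-activated chloride channel Ano1 have been studied as sources of the rhythm. Smooth muscle of the mouse ureter differentiates late in gestation from the mesenchyme in which Tbx18 is active.

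The median spot signal was 433 for the control and 754 for the Gata2cKO RNA on array 1, and 754 and 428 on array 2. Between 66% and 69.4% of spots in a channel stood well above background. No spot was saturated, and no member probe carried an outlier flag (0 of 105). The targeted gene did not check the labels. Its log2 ratio of Gata2cKO over control was 0.33 on array 1 and 0.54 on array 2 (mean 0.44, SD 0.15, n = 2, limma adjusted p = 0.409), and the labels do not name the part of Gata2 that was removed. RNA is therefore called Gata2cKO by its label throughout.

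Some results below turn on single probes, and 5 genes carry most of them: Cacng3, Ryr2, Itpr1, Atp2b1 and Cacna2d1. For these genes the first 30 of the 60 bases of each probe are printed, 5′ to 3′ in lower case, with the position that the scanner files give on the mouse build mm9. Both expressed probes are shown for Atp2b1 and Cacna2d1, because the probes of each gene gave unlike ratios.
Cacng3, chr7:129912275-129912334, plus strand: ttctacagttccacaactccacacccaaag
Ryr2, chr13:11645812-11645871, minus strand: taaatgaacaaagaaagccctcagaaacaa
Itpr1, chr6:108501025-108501084, plus strand: gaaccgtatgcagagttccgaagcaagtca
Atp2b1, brighter probe, chr10:98485775-98485834, plus strand: actagctgcattgtaaagaaacaaatcgaa
Atp2b1, dimmer probe, chr10:98431670-98431729, plus strand: cagatccacggatgcattacggaaaataca
Cacna2d1, brighter probe, chr5:15880152-15880211, plus strand: ccttattatgttctctggacacttttgtgg
Cacna2d1, dimmer probe, chr5:15876550-15876609, plus strand: agttacattaaataggagtcggttgaagaa
Read over their 60 bases in the direction printed, the Ryr2 probe and the brighter Atp2b1 probe hold a stop triplet in each of the 3 frames, whereas the dimmer Atp2b1 probe holds none in any of the 3. Exons were not assigned, because an mm9 annotation was not used here.

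Across the calcium genes the ratios were small. Limma's moderated test over all genes, with Benjamini-Hochberg adjustment, gave 0 of the 55 expressed members an adjusted p under 0.05, against 18 of 20506 genes, or 0.0878%. Without adjustment 7 members (12.7%) had p under 0.05, against 7.17% of all genes. None was at least 1.5-fold different with the same sign on both arrays (0 of 55), against 0.712% of all genes.

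The 55 members were spread on both sides of 0. On both arrays 20 members (36.4%) were lower in Gata2cKO and 10 (18.2%) were higher, against 26.2% and 27% of all genes, and 25 had opposite signs. The median log2 ratio of the members was -0.053 (-0.048 on array 1 and -0.049 on array 2), against 0.0028 over all genes. The arrays differed by a median of 0.20 for a member and 0.17 for any gene. The authors' deposited table does not state its direction, which was inferred here from correlations of 0.498 and 0.423 with the scanner ratios. Read that way, the authors' deposited table has 11 members lower and 19 higher on both arrays. The median of the members in it is 0.064, against -0.0036 over all genes, so the sign of the median turns round. The shares of all genes lower or higher in that table were not counted. There 8 members with 1 sign on both arrays (Cacnb1, Itpr3, Orai3, Ryr1, Stim1, Trpc4, Trpc5 and Trpm6) have a mean of the opposite sign.

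The intervals give the precision in this setting. The 95% interval of the mean ratio, from limma's moderated error, lay inside a 2-fold difference in either direction for all 55 members, against 98.2% of all genes. For Cacng3, not above background in Gata2cKO, the interval sets no limit on the difference. Other processing also gave means past 2-fold, at -1.94 for Cacng3 on signals processed by the scanner software and 1.17 for Atp2b1 in the authors' deposited table. In the main processing the dimmer Cacna2d1 probe had a mean of -1.09, so Cacna2d1 lies inside 2-fold only by its brighter probe. The interval lay inside 1.5-fold for 50 of the 55 members (90.9%), Cacna2d1 again by its brighter probe, against 89.7% of all genes. The intervals of Cacng3, Ryr2, Ryr1, Itpr1 and Atp2b1 reached past 1.5-fold. These limits hold for the main background handling only. On signals processed by the scanner software the means of some dim members lay farther from 0. Cacna1s moved from -0.22 to -0.48, Trpc5 from -0.18 to -0.41 and Trpc6 from 0.20 to 0.37. Other dim members moved little, such as Cacnb4 (-0.013 to -0.0057).

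**Figure D1:**
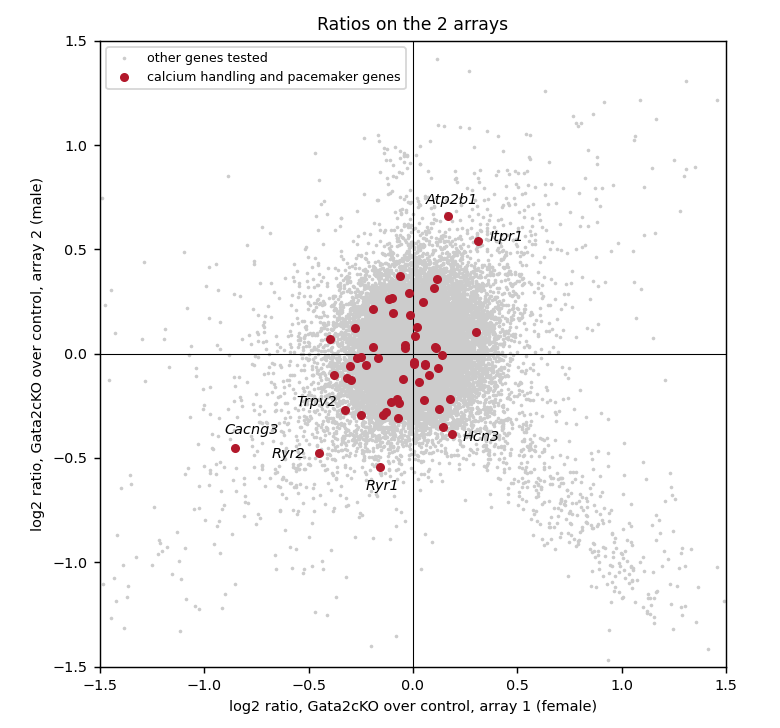
Log2 ratio of Gata2cKO over control on array 1 (x axis) and array 2 (y axis), 1 point per gene, with the 55 expressed calcium and pacemaker genes in red over all other genes tested in grey; 42 genes lie outside the plotted range of 1.5 in either direction. Most red points lie within the grey cloud around 0, with Cacng3 farthest to the lower left (-0.85 and -0.45) and Itpr1 and Atp2b1 to the upper right.

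Voltage-gated calcium channels are named for the pore-forming alpha1 subunit. Cacna1c, which forms the main L-type channel of smooth and cardiac muscle, was not well above background on any array in either genotype on its only probe (0 of 2 arrays in each). Cacna1f of the retina and the neuronal N- and R-type genes Cacna1b and Cacna1e were also at 0 of 2 arrays in each genotype. For these genes no ratio is given.

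Cacna1d, an L-type gene of sinoatrial, endocrine and neuronal cells, had signals of 2978 (control) and 2939 (Gata2cKO) on array 1 and 2974 and 3634 on array 2. Its log2 ratios were -0.019 and 0.29 (mean 0.14, SD 0.22, n = 2), on either side of 0. The signals of Cacna1s, the L-type subunit of skeletal muscle, were 233 (control) and 187 (Gata2cKO) on array 1 and 214 and 197 on array 2. Both Gata2cKO signals were the lower ones, but the gene was well above background on only 1 of 2 Gata2cKO arrays, and its 95% interval (-0.50 to 0.061) included 0.

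The 3 T-type genes, whose channels open near the resting potential and are a textbook pacemaker current, were all expressed. Cacna1g had signals of 9110 (control) and 9833 (Gata2cKO) on array 1 and 9287 and 9451 on array 2. Both Gata2cKO values were higher, by 0.11 and 0.025 on the log2 scale, with a 95% interval of the mean of -0.20 to 0.33. A further Cacna1g probe gave 0.074 and -0.36, so the gene's probes did not share a sign. Cacna1h went from 1763 to 1646 on array 1 and from 1553 to 1866 on array 2 (log2 ratios -0.099 and 0.27), with opposite signs, as did Cacna1i (0.056 and -0.049). Cacna1a, the neuronal P/Q-type subunit, was lower on both arrays at -0.13 and -0.28 (mean -0.20, SD 0.10, n = 2, limma adjusted p = 0.779).

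**Figure D2:**
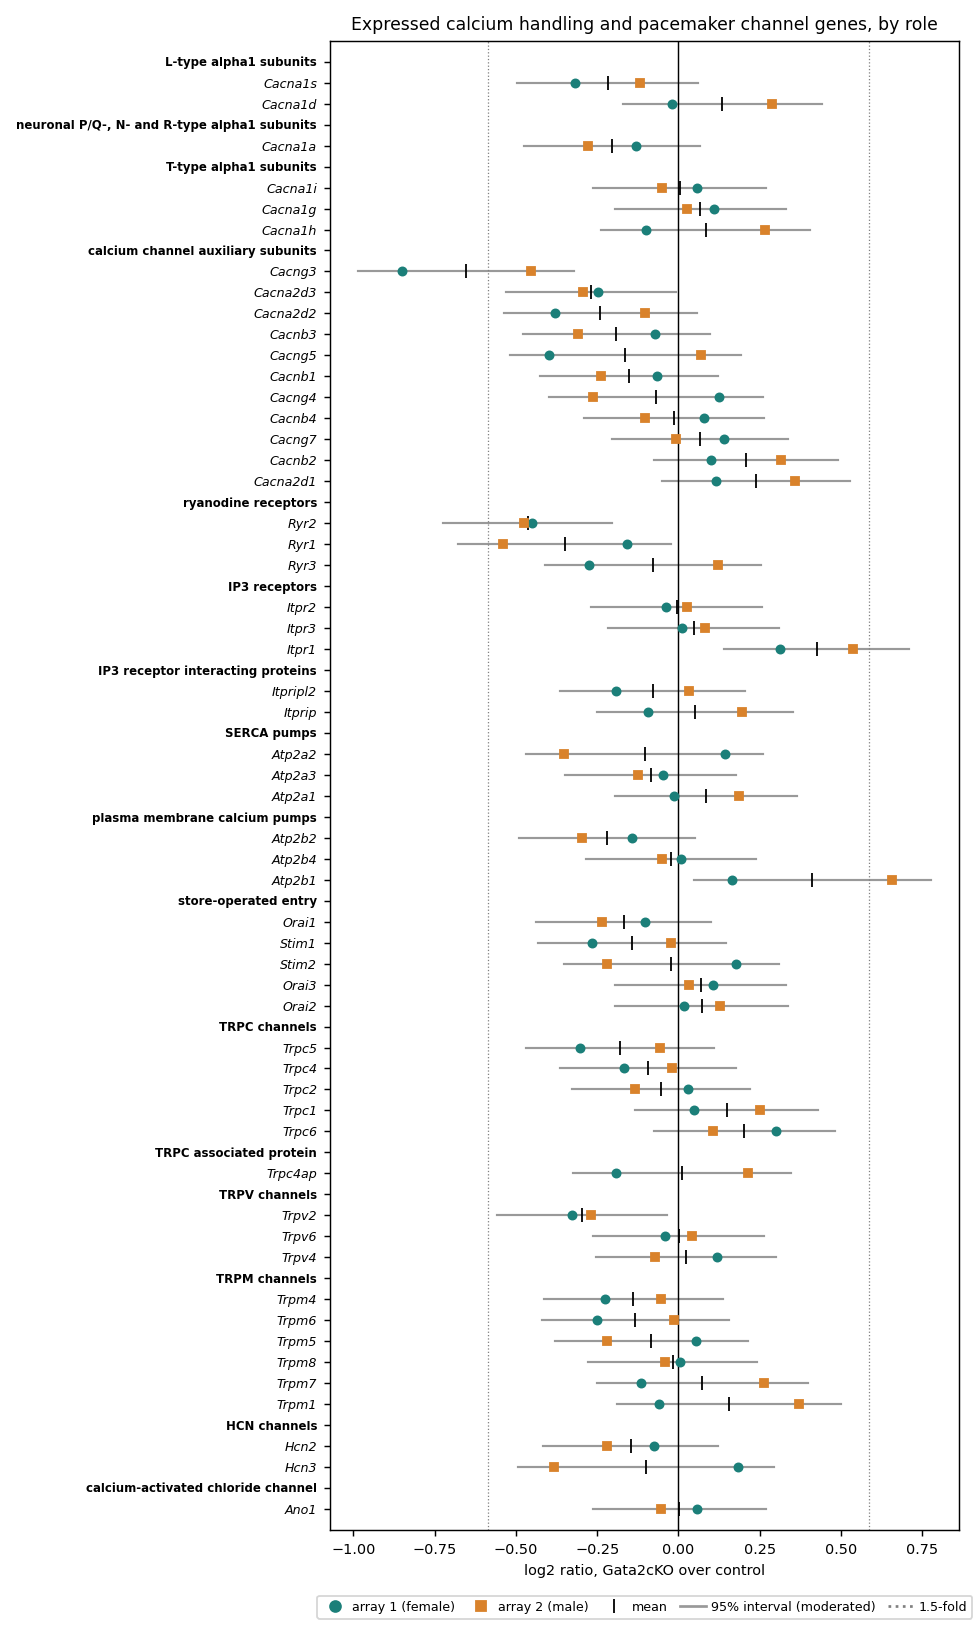
Log2 ratio of Gata2cKO over control (x axis) of 54 expressed members, grouped by role: circles for array 1 (female), squares for array 2 (male), a tick for the mean and a grey line for its moderated 95% interval, with dotted lines at 1.5-fold. Most intervals include 0, and the 7 that do not belong to Cacng3, Cacna2d3, Ryr2, Ryr1, Itpr1, Atp2b1 and Trpv2.

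Auxiliary subunits set how many channels reach the membrane and how they open. Of the 16 auxiliary genes 11 were expressed, with a median log2 ratio of -0.15. On both arrays 5 were lower and 2 were higher, where 26.2% of all genes were lower and 27% higher. Cacng3, counted among the lower ones, passed the filter only through the controls. Cacng1, the gamma subunit of skeletal muscle, was at 0 of 2 arrays in each genotype, as were Cacng2, Cacng8 and Cacna2d4. Cacng6 was above background on 1 of 2 arrays in each genotype and did not count as expressed.

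Cacng3 encodes a neuronal protein of the gamma family that also escorts AMPA-type glutamate receptors. Its signals were 242 (control) and 134 (Gata2cKO) on array 1 and 203 and 148 on array 2. The control lay above Gata2cKO on each array. The log2 ratios were -0.85 and -0.45 (mean -0.65, SD 0.28, n = 2, 95% interval -0.99 to -0.32), with an adjusted p of 0.248 in limma's test.
Its probe was well above background on 2 of 2 control arrays and 0 of 2 Gata2cKO arrays. It thus entered the test only through the controls, and the size of the difference is not known. With the lowest signal well above background as a floor, Cacng3 was 1.46-fold lower in Gata2cKO (normalized log2 means of 7.79 in control and 7.14 in Gata2cKO). This is no minimum difference, because probes brighter than that floor can fail the background measure. In control RNA on array 1, a Trpc4 probe at 190 and a Cacnb2 probe at 175 were not above background. The fold of 1.46 is on means after the channels of both arrays were brought to a common brightness. Adjusted p-values from limma were 0.0368 on signals processed by the scanner software and 0.00908 with a trended and robust prior, and against a channel not above background they support no call. The authors' deposited table lists Cacng3 at log2 values of 0 and -0.13.

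The subunit Cacna2d1, which binds gabapentin-type drugs and raises channel number at the membrane, was read by the printed pair of probes, and these disagreed. Its brighter probe gave signals of 9050 (control) and 9811 (Gata2cKO) on array 1 and 8729 and 11200 on array 2. The log2 ratios were 0.12 and 0.36 (mean 0.24, SD 0.17, n = 2), higher on both arrays.
The dimmer probe gave 3780 (control) and 1036 (Gata2cKO) on array 1 and 1696 and 1368 on array 2. The control was above Gata2cKO on each array, by more on array 1. This probe's log2 ratios were -1.87 and -0.31 (mean -1.09, SD 1.10), and with every probe fitted on its own its adjusted p in limma was 0.554.
Before any normalization the mean spot signals of that probe were 2855 (control) and 1363 (Gata2cKO) on array 1 and 2245 and 1028 on array 2. The control had the brighter spot on both arrays, in 555 on the first and 647 on the other. For the same dimmer probe the authors' deposited table gives log2 values of 1.05 and 0.92, which in the inferred direction is higher in Gata2cKO, opposite to the scanner files. Among the 16 members with more than 1 expressed probe, the means of a gene's probes spanned a median of 0.072, and Cacna2d1 spanned 1.33. The next widest span was 0.23, for Atp2b1.

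The other alpha2-delta genes were lower on both arrays. Cacna2d3 had signals of 7721 (control) and 6505 (Gata2cKO) on array 1 and 7197 and 5876 on array 2. Each array had the control above Gata2cKO, with log2 ratios of -0.25 and -0.29 (mean -0.27, SD 0.032, n = 2) and a limma adjusted p of 0.677. Cacna2d2 gave -0.38 and -0.10.
Among beta subunits, which bind the alpha1 subunit in the cytoplasm, Cacnb2 of heart and smooth muscle was at 0.10 and 0.31, and Cacnb3 at -0.073 and -0.31. Cacnb1, the beta subunit of skeletal muscle, was lower on both arrays as well, at -0.067 and -0.24. Cacnb4 and the gamma genes Cacng4, Cacng5 and Cacng7 each had opposite signs on the arrays.

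Ryanodine receptors release stored calcium when calcium itself or a coupled membrane channel opens them. All 3 genes were expressed, and 2 of them were lower on both arrays, where 26.2% of all genes were. Ryr2, the isoform of heart, smooth muscle and neurons, had signals of 248 (control) and 181 (Gata2cKO) on array 1 and 228 and 164 on array 2. Gata2cKO was the lower on each array. All of these signals were dim: a Trpc4 probe at 190 in control RNA on array 1 was not above background. The log2 ratios were -0.45 and -0.48 (mean -0.46, SD 0.018, n = 2, 95% interval -0.72 to -0.20), which is 1.38-fold lower in Gata2cKO. Its adjusted p in limma's test was 0.315. It was 0.0418 with the scanner software's processed signals (log2 ratios -0.76 and -0.79) and 0.0288 with a trended and robust prior, and 0.872 in limma's test of the authors' deposited table, where the log2 values are -0.35 and -1.18.

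Ryr1, the isoform of skeletal muscle, had signals of 479 (control) and 429.6 (Gata2cKO) on array 1 and 599 and 411 on array 2. The probe, at chr7:29788789-29789487 on the minus strand, lies over a stretch of genome longer than the probe itself. The control was higher on each array, by unlike amounts: the log2 ratios were -0.16 and -0.54 (mean -0.35, SD 0.27, n = 2, limma adjusted p = 0.664). Ryr3, found at low level in many tissues, had 1066 (control) and 880 (Gata2cKO) on array 1 and 956 and 1039 on array 2, with opposite signs.

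Markers of some other cell types were lower as well, where 26.2% of all genes were lower on both arrays and 27% higher. Smooth muscle markers were lower on both arrays in 8 of 9 tested, whereas urothelial markers were higher on both in 9 of 14. Of 10 tested skeletal muscle markers 9 were lower on both arrays (median log2 ratio -0.39), with summed signals of 21300 and 18340 in the controls and 16360 and 12150 in Gata2cKO. The skeletal markers Mylpf and Ckm were not expressed by the rule used here. Of the 14 neuronal and chromaffin markers 12 were lower on both arrays (median -1.15), with summed signals of 88770 and 72960 in the controls and 51320 and 53690 in Gata2cKO. The part of these cell types in the ratios of Ryr1, Ryr2, Cacna1s or Cacng3 was not tested. In bulk RNA, fewer cells of a type and less RNA per cell cannot be told apart.

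IP3 receptors release calcium from the same store in response to hormones and transmitters. Itpr1, the isoform best known from cerebellum and smooth muscle, had signals of 11470 (control) and 14250 (Gata2cKO) on array 1 and 12120 and 17600 on array 2. Gata2cKO was above the control on each array. The log2 ratios were 0.31 and 0.54 (mean 0.43, SD 0.16, n = 2, 95% interval 0.14 to 0.71), which is 1.34-fold higher, with a limma adjusted p of 0.423. The authors' deposited table has smaller log2 values for Itpr1, 0.19 and 0.024.
The other isoforms lay near 0. Itpr2 gave -0.038 and 0.026, and Itpr3, the isoform common in epithelia, gave 0.0097 and 0.083. Each of their 95% intervals, -0.27 to 0.26 and -0.22 to 0.31, lay inside 1.5-fold. Itprip and Itpripl2, named for a protein that binds IP3 receptors, had opposite signs, and Itpripl1 was not expressed.

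**Figure D3:**
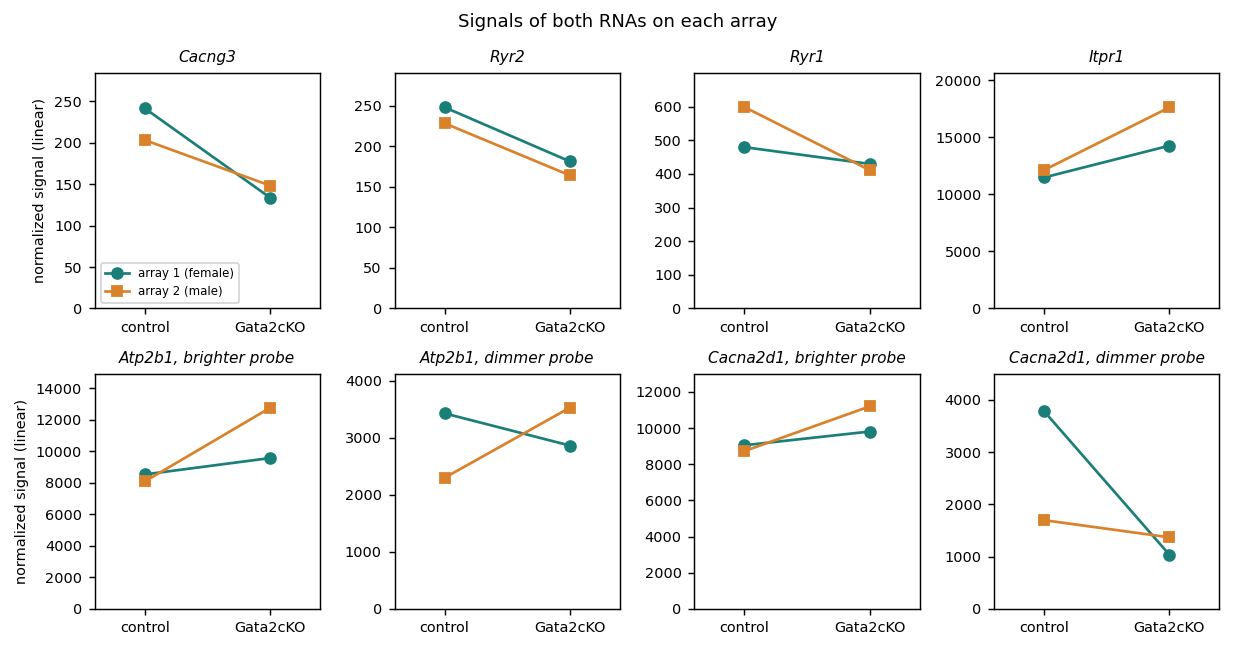
Normalized linear signals of control and Gata2cKO RNA (y axis from 0) for Cacng3, Ryr2, Ryr1, Itpr1 and both probes of Atp2b1 and Cacna2d1, with a line joining the pair of signals on each array. The lines run down on both arrays for Cacng3, Ryr2 and Ryr1 and up on both for Itpr1, while the dimmer Atp2b1 probe runs down on array 1 and up on array 2, and the dimmer Cacna2d1 probe runs down on both where its brighter probe runs up.

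Calcium is cleared by pumps of 2 kinds. Atp2a2, the SERCA pump of heart and smooth muscle, had signals of 2181 (control) and 2409 (Gata2cKO) on array 1 and 2587 and 2029 on array 2. The arrays pointed in opposite directions (log2 ratios 0.14 and -0.35), and a further Atp2a2 probe gave 0.022 and 0.23. The skeletal muscle pump Atp2a1 was at -0.014 and 0.19, and Atp2a3, the SERCA of blood and epithelial cells, was lower on both arrays at -0.048 and -0.12. All 3 intervals included 0.

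Atp2b1, the plasma membrane pump found in nearly all cells, had signals of 8520 (control) and 9557 (Gata2cKO) on array 1 and 8074 and 12740 on array 2 on its brighter probe. Gata2cKO was the higher on each array, and array 2 stood out. The log2 ratios were 0.17 and 0.66 (mean 0.41, SD 0.35, n = 2, 95% interval 0.047 to 0.78), with a limma adjusted p of 0.630.
Its dimmer probe gave 3427 (control) and 2863 (Gata2cKO) on array 1 and 2297 and 3526 on array 2, or log2 ratios of -0.26 and 0.62. The probes thus shared a direction only on array 2. In the authors' deposited table the brighter probe has log2 values of 1.52 and 0.82 and the dimmer one 0.81 and 1.14, all higher in Gata2cKO in the inferred direction. Atp2b2 of neurons and hair cells was at -0.14 and -0.30, Atp2b4 at 0.0069 and -0.051, and Atp2b3 was not expressed.

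Store-operated entry joins STIM, the calcium sensor of the store, to ORAI, the pore in the cell membrane, and all 5 genes were expressed. Stim1 had signals of 2772 (control) and 2304 (Gata2cKO) on array 1 and 2371 and 2336 on array 2. Each control was above the Gata2cKO value of its array, by little on array 2. Log2 ratios were -0.27 and -0.021, and -0.22 and -0.15 on a further probe that overlaps the first in sequence, so the pair does not make separate measurements.
Orai1, the main pore, was lower on both arrays at -0.10 and -0.23 (mean -0.17, SD 0.093, n = 2, limma adjusted p = 0.820). Orai2 was at 0.017 and 0.13, and Stim2 at 0.18 and -0.22. Orai3 was at 0.11 and 0.031 on its brightest probe, and its other two expressed probes had means of -0.085 and -0.0067, so its direction depended on the probe. The 5 genes had a median log2 ratio of -0.022, with all 5 intervals including 0.

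TRP channels let cations in after receptor, mechanical, thermal or chemical stimulation. Of 7 TRPC genes, 8 TRPM genes and 6 TRPV genes, 6, 6 and 3 were expressed. Trpv2, a channel of sensory neurons, macrophages and muscle, had signals of 1165 (control) and 928 (Gata2cKO) on array 1 and 963 and 799.5 on array 2. Each Gata2cKO signal was below the control of its array. The log2 ratios were -0.33 and -0.27 (mean -0.30, SD 0.042, n = 2), with a limma adjusted p of 0.628. Macrophage markers were also lower on both arrays, in 8 of 8 tested (median -0.32), against 26.2% of all genes. Their summed signals were 37780 and 35580 in the controls and 28600 and 29090 in Gata2cKO. The part of macrophages in the Trpv2 ratio was not tested.

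TRPC channels open downstream of phospholipase C. Trpc6, a receptor-operated channel of smooth muscle, was higher on both arrays at 0.30 and 0.11, as was Trpc1 at 0.047 and 0.25. Trpc4 was at -0.17 and -0.020, and Trpc5 at -0.30 and -0.058. Each of these 4 intervals included 0. Trpc2 had opposite signs, and so did Trpc4ap, an adaptor protein that the name rule includes although it is no channel.
Trpv4, an osmotic and stretch sensor of the urothelium, was at 0.12 and -0.071. Trpv6, an epithelial calcium channel, was at -0.040 and 0.042. Their intervals, -0.25 to 0.30 and -0.26 to 0.26, lay inside 1.5-fold. Trpm4, a calcium-activated cation channel, was at -0.23 and -0.052, and Trpm7, a widely expressed channel joined to a kinase, at -0.11 and 0.26. Trpm6 was lower on both arrays (-0.25 and -0.015), and Trpm1, Trpm5 and Trpm8 had opposite signs. Trpc7, Trpm2, Trpm3, Trpv1, Trpv3 and Trpv5 were not expressed by the rule used here, although Trpm3 was above background on 1 of 2 arrays in each genotype.

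HCN channels open on hyperpolarization and carry the pacemaker current of heart and brain. Hcn4, the main gene of the sinoatrial node, was at 0 of 2 arrays in each genotype. Hcn3, studied in pacemaker tissue of the mouse renal pelvis, had signals of 501 (control) and 569.5 (Gata2cKO) on array 1 and 633 and 485 on array 2. The arrays pointed in opposite directions, with log2 ratios of 0.18 and -0.38 (mean -0.10, SD 0.40, n = 2, 95% interval -0.49 to 0.29). Hcn2 had 13230 (control) and 12550 (Gata2cKO) on array 1 and 12510 and 10750 on array 2. Its log2 ratios were -0.076 and -0.22 (mean -0.15, SD 0.10), lower on both arrays, as they were on a further probe (-0.15 and -0.048).

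Ano1, whose chloride channel marks interstitial pacemaker cells of the gut and is also made by smooth muscle and epithelia, had no common direction. Its signals were 18420 (control) and 19180 (Gata2cKO) on array 1 and 21640 and 20850 on array 2. The sign changed between the arrays, with log2 ratios of 0.059 and -0.053 and a mean of 0.0026 (SD 0.079, n = 2, 95% interval -0.26 to 0.27). Kit, the receptor that marks the same gut cells, was at 0.14 and 0.043 (mean 0.092, SD 0.070).

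Genes whose proteins work with these channels were read from the same fit. Of 52 calcium partners (store proteins, calmodulins and their kinases, sodium-calcium exchangers, calcium-activated potassium channels, gap junction and mitochondrial calcium genes) 48 were tested and 0 passed an adjusted p of 0.05 in limma's test, with 6 under 0.05 before adjustment. Over all genes these shares were 0.0878% and 7.17%. On both arrays 16 partners were higher and 12 lower, with a median log2 ratio of -0.0083, where 27% and 26.2% of all genes were higher and lower.
Kcnma1, the pore of the BK potassium channel that calcium opens to end a contraction, was the only partner at least 1.5-fold different on both arrays. Its log2 ratios were 1.31 and 0.89 (mean 1.10, SD 0.30, n = 2, 95% interval 0.76 to 1.44), higher in Gata2cKO, with an adjusted p of 0.0863. Kcnmb1, the smooth muscle subunit of the same channel, had opposite signs (0.091 and -0.51).
Among partners of the ryanodine receptor and SERCA, Fkbp1b, which binds Ryr2, was at -0.47 and -0.33. Sarcolipin (Sln), an inhibitor of SERCA, was at -0.34 and -0.43. Fkbp1b and Sln were named after their values were seen. Besides them and Kcnma1, partners under 0.05 before adjustment in limma's test went both ways. Camk2b was lower (-0.44 and -0.42), and Pkd2 (0.27 and 0.25) and Gem (0.16 and 0.46) were higher. Other store partners were smaller or mixed. Fkbp1a was at -0.019 and -0.18, Casq1 at -0.17 and -0.035, and Jph2 at -0.26 and 0.097. Hrc was at -0.057 and 0.0044, and Asph at 0.053 and 0.17. Phospholamban (Pln) was not expressed by the rule used here, and the store protein Casq2 was at 0.082 and -0.15. Slc8a1, the sodium-calcium exchanger, was at -0.038 and 0.087, and Gja1, the main gap junction protein of smooth muscle, at 0.076 and 0.20.

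Marker lists show which tissues the arrays read. Over all genes 26.2% were lower and 27% higher on both arrays, and 7.17% had p under 0.05 in limma's test before adjustment. Smooth muscle markers were lower on both arrays in 8 of 9 tested, with a median log2 ratio of -0.69 and none past an adjusted p of 0.05 (0 of 9 in limma's test, 6 of 9 under 0.05 before adjustment). Myh11, the smooth muscle myosin, had -1.05 and -1.21 (adjusted p = 0.0509). Summed smooth muscle signals were 78200 and 80690 in the controls and 59880 and 55120 in Gata2cKO, and Lmod1 was not expressed. The calcium genes had a median of -0.053 on the same arrays, and the part of smooth muscle content in their ratios was not tested.
In the neuronal and chromaffin list Prph (mean log2 ratio -1.35) and Chgb (mean -2.06) fell, each with a limma adjusted p of 0.0380. With median centring in place of loess, or in the authors' deposited table, 0 genes passed, so both calls are lost there. Urothelial markers were higher on both arrays in 9 of 14 (median 0.19). Mesenchymal markers were divided, with 3 of 9 lower and 3 of 9 higher on both arrays (median -0.078), and endothelial markers had a median of -0.026. Glial markers had a median of -0.39 and cardiac ones of -0.17, where Nppa was not expressed. Of the kidney tubule list Slc34a1, Umod and Slc12a1 were not expressed, and the 4 others had a median of 0.097.

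**Figure D4:**
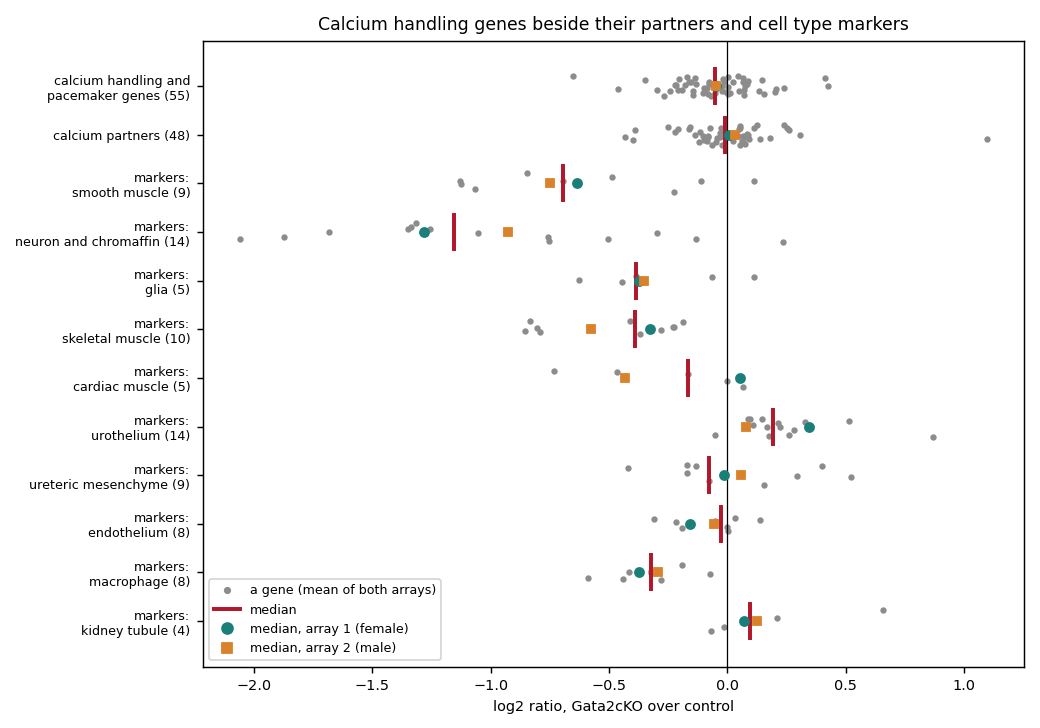
Mean log2 ratio of Gata2cKO over control (x axis) of each tested gene in the calcium and pacemaker set, the calcium partners and the marker lists, with the number tested in brackets; grey points are genes, the red bar is the median of the means, the circle the median on array 1 and the square the median on array 2. The calcium genes and their partners centre near 0 (medians -0.053 and -0.0083), while the smooth muscle and neuronal lists have medians of -0.69 and -1.15.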

How the data were processed

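Expression was measured on 2 dye-swapped 2-colour Agilent arrays. Per the file headers, the authors read them with Agilent Feature Extraction 10.7.3.1, and the deposited scanner files give, on a linear scale, the intensity of each spot and of its surroundings. They also hold a log10 ratio of red over green, per the file headers, from signals that the software had processed. A deposited table of signed fold changes per probe, whose making and centring are not given in the sources used here, correlates with the scanner ratios at 0.498 and 0.423 when both run Gata2cKO over control; its direction is unstated and was taken from the sign of these. It served as an alternative only, as log2 of the fold with its sign.

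Background was corrected by normexp (offset 50) and loess (span 0.3) was run within each array in limma 3.58.1 (R 4.3.3), with control spots and outlier spots (255 and 178) at weight 0. Ratios were turned to Gata2cKO over control, and the signals printed are the loess-normalized channels. Their brightness was not brought to a common level between the arrays, so the genotypes are compared within an array. Spots of a probe were averaged, and each gene is read by its brightest expressed probe. RefSeq names (GRCm38.p6) were matched by accession for 26412 probes, and 13017 kept the file's name; members keep the file's name (Trpc2 is Xntrpc in RefSeq).

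The mean ratio was set against 0 with lmFit and eBayes (1 residual degree of freedom per gene, prior of 4.68 with an SD of 0.163), two-sided, adjusted by Benjamini-Hochberg over 20506 genes. Each array is itself the pair of control and Gata2cKO RNA. Sex and dye orientation were not fitted. The functions were tested on simulated arrays.

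The members and lists were chosen with earlier results of these data known, so lists are described and not tested. Genes named are members past an adjusted p of 0.05, or at least 1.5-fold with 1 sign on both arrays, or with probes that disagree (1 of them at least 1.5-fold), a textbook set of members, and 6 partners. The other members, the other partners and the marker genes were named after their values were seen. The counts cover all members and markers; 2 members and 1 marker are not reported here by name. Probes were to be printed where they translate to the protein; no protein table was used here, so probes were chosen for the results that turn on them. Python 3.11.15 with pandas 2.3.3 and matplotlib 3.10.9 made the figures; jsonlite 2.0.0 and the R package data.table, version 1.17.8, read the files. The number of arrays limits the precision.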

Additional observations from a re-analysis of the deposited data

Results flagged for a closer look

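The dimmer probe of Atp2b1, the plasma membrane calcium pump, had ratios of opposite sign on the arrays. Its log2 ratio of Gata2cKO over control was -0.26 on array 1, with female RNA, and 0.62 on array 2, with male RNA, so that array 1 minus array 2 was -0.88. The difference was not tested, since each sex has 1 array, and sex and dye orientation change together. The brighter Atp2b1 probe was at 0.17 and 0.66.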

How the results depend on the processing

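The count of members past an adjusted p of 0.05, 0 in the main setting, was 2 with the signals that the scanner software had processed and 2 with a trended and robust prior (Ryr2 and Cacng3 in both). Cacng3 was above background only in the controls and supports no call, which leaves Ryr2. The Ryr2 probe was above background on 2 of 2 arrays in each genotype but dim, at 181 and 164 in Gata2cKO. Its mean log2 ratio moved with background handling: -0.46 in the main setting, -0.55 with an offset of 20 and -0.78 with the processed signals. The count of members at least 1.5-fold on both arrays, 0 in the main setting, was 2 with the processed signals (the same genes) and 1 in the authors' deposited table (Atp2b1). Each array alone gave 1 at 1.5-fold: Atp2b1 (0.66) without replicate 1 and Cacng3 (-0.85) without replicate 2. The members' median log2 ratio was -0.050 with the processed signals, -0.054 with an offset of 20, -0.075 with median centring, -0.049 with scaling between arrays, -0.022 among members above background in both groups, -0.062 with the mean of a gene's probes, and -0.070 with every probe fitted on its own, a setting added after seeing the data. It was -0.049 without replicate 1 and -0.048 without replicate 2. In the authors' deposited table it was 0.064, the opposite sign, and the cause was not tested. The mean of a gene's probes reversed Cacna1g (-0.037), Cacna2d1 (-0.43) and Orai3 (-0.0078). The authors' deposited table reversed Cacnb1 (0.080), Itpr3 (-0.14), Orai3 (-0.068), Ryr1 (0.11), Stim1 (0.039), Trpc4 (0.18), Trpc5 (0.34) and Trpm6 (0.074). Of the 30 members with 1 sign on both arrays, 20 were reversed in no setting run. Some settings could not reverse them: the changed detection filters and the trended prior changed none of these ratios. Each array alone had to keep the sign. All genes past an adjusted p numbered 18 in the main setting, 173 with processed signals, 376 with a trended and robust prior, 0 with median centring, 25 with scaling, 54 without the detection filter, 35 above background in both groups and 0 in the authors' deposited table. The main fit is already paired, since each array's ratio compares the RNAs it holds, and no replicate block can be added to it.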
